A study of Mus musculus with 4 samples.

Results

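The 10 genes described here encode the carnitine shuttle and the core enzymes of mitochondrial fatty acid beta-oxidation: Cpt1a, Slc25a20, Cpt2, Acadvl, Acadl, Acadm, Hadha, Hadhb, Acaa2 and Eci1. They were chosen by function, as the listed genes of that pathway, and all probe sets that the platform annotation assigns to them were taken: 18 probe sets for 10 genes, out of 12393 genes on the array. Intestinal mucosa was taken from male mice of the inbred strains C57BL/6J and A/J, aged 10 weeks and kept for 2 weeks on either of 2 diets, low-fat or high-fat. C57BL/6J is known as a strain prone to diet-induced obesity and A/J as a resistant one. The 4 combinations of strain and diet held 6 mice each. For the 1 array of each group, RNA was pooled from 2 mice whose body weight was average, so neither the spread between mice nor the mice at the extremes of weight can be seen. The pools carry whole mucosa, in which fewer cells of a type and less RNA per cell cannot be told apart.

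Long-chain fatty acids reach the mitochondrial matrix as carnitine esters: Cpt1a, on the outer membrane, makes the ester and is the step that malonyl-CoA inhibits, Slc25a20 exchanges it for free carnitine across the inner membrane, and Cpt2 returns it to coenzyme A. In the matrix, acyl-CoA dehydrogenases of differing chain-length preference (Acadvl, Acadl, Acadm) take the first oxidation step. The trifunctional protein (Hadha and Hadhb) carries out hydration, the second oxidation and thiolysis of long chains, Acaa2 is a thiolase of the matrix, and Eci1 moves double bonds of unsaturated chains to where the hydratase can act. Absorptive enterocytes take up dietary fatty acids and mostly re-esterify them for export, and they can also oxidise a share of them. Several of these genes are known targets of the fatty acid receptor Ppara in liver and intestine.

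The comparisons were high-fat over low-fat within each strain, and A/J over C57BL/6J on each diet. Values are scaled signals, the deposited linear signal multiplied by 1 factor per array (2.72 and 2.80 for A/J on low-fat and high-fat, 3.08 and 3.41 for C57BL/6J), with 100 as the floor. Where 4 signals are given in a row, they are low-fat then high-fat, first of A/J and then of C57BL/6J. Median deposited signals before scaling lay between 43.9 and 57.1. A gene was called measured when its mean scaled signal was at least 100, which 8036 genes and all 10 of these were. A listed gene without a probe set of its own, annotated to it alone, could not be measured. Such a probe set existed for 11 of 13 enterocyte, 6 of 7 goblet cell and 10 of 12 pancreas markers. It existed for 5 of 7 adipocyte and 5 of 6 hepatocyte markers. Markers of absorptive enterocytes were high throughout, with 11 of 13 measured and summed signals between 190663 and 201872. Summed signals of goblet cell markers (6 of 7 measured) lay between 72179 and 82796, of smooth muscle (7 of 8) between 4240 and 6459, of adipocytes (3 of 7) between 1421 and 1620 and of hepatocytes (2 of 6, of which Apob is also an enterocyte gene) between 13873 and 16377. Exocrine pancreas markers (10 of 12 measured) summed to 2388 on the A/J high-fat array, where 5 of them were under the floor, and to between 93736 and 152944 on the rest. T cell markers (8 of 8 measured) summed to 12966 on the C57BL/6J low-fat array and to between 3031 and 7142 elsewhere. The control probe set for the 5′ part of 18S ribosomal RNA stood at 11010 on the C57BL/6J low-fat array and at 84.4 to 1675 elsewhere. All 10 genes peaked on the array of A/J high-fat, as did 26.7% of measured genes, and 8 had their lowest on the C57BL/6J low-fat array, as did 28.1%. The part of these differences in the results was not tested.

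To show the DNA from which these genes start, RefSeq promoter windows on GRCm38.p6 were read, 250 bases immediately before each start site, and 9 of the 10 genes matched. The windows are printed 5′ to 3′ on the strand of the gene. Capitals mark AGGTCA, the core sequence that Ppara and related nuclear receptors recognise, or its reverse complement TGACCT, and GGGCGG, the GC box of housekeeping promoters, or its reverse complement CCGCCC. The 5 windows below belong to the first enzyme of the shuttle, the carrier, the gene with the largest strain ratio of the group, the gene whose window also serves Hadha, and the gene whose diet ratios had opposite signs.
Cpt1a, chr19:3323051-3323300, plus strand: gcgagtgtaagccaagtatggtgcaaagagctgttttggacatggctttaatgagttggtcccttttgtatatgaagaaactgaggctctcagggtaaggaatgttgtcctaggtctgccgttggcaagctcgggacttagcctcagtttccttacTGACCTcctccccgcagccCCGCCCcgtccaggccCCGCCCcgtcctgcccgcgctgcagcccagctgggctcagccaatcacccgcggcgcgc
Slc25a20, chr9:108661886-108662135, plus strand: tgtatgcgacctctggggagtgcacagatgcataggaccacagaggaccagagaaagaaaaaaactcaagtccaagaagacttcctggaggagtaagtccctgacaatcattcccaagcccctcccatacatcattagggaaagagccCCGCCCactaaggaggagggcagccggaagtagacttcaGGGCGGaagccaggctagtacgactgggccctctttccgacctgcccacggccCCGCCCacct
Acadl, chr1:66863310-66863559, minus strand: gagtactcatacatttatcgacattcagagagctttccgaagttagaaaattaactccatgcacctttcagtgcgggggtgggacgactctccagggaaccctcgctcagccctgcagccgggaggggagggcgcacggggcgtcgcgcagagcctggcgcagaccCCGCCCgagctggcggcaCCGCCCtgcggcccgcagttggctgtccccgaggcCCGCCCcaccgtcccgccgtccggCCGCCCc
Hadhb, chr5:30155003-30155252, plus strand: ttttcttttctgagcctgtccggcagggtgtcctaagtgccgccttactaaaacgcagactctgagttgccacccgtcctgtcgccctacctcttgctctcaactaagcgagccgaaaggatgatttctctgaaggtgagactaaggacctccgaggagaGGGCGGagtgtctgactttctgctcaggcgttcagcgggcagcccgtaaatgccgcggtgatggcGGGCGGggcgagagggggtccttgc
Eci1, chr17:24426433-24426682, plus strand: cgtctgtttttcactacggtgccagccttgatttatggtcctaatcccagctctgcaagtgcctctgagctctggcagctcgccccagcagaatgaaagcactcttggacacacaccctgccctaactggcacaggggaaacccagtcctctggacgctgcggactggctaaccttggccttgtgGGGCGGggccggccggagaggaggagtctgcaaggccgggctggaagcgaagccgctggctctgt

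GGGCGG, on either strand, lay in 7 of the 9 windows, against 32.7% of 32851 windows of the same length, and Acadl had 4 copies. The share of G and C bases was 49.6% in the Acadvl window and 56.8% to 68% in the rest, beside a mean of 53.2% over all windows. The part of this in the matches was not tested. AGGTCA lay in 3 (Cpt1a, Acadm and Acadvl), against 14.0% of all windows. In Cpt1a it began 94 bases before the start. CCAAT was found in 1 (Cpt1a), against 33.8%. None of the 9 windows held the DR1 element, a direct repeat of AGGTCA with 1 base between the copies (0.0335% of all windows), the palindromic Nrf1 site (0.782%), TATAAA (12.4%), TCAAGGTCA (0.387%), TGACGTCA (1.55%) or CACGTG (6.02%). All were searched on both strands. AGGTCA is contained in the repeat and in TCAAGGTCA, so those searches overlap. The motifs were chosen after the expression values were known, and a match is a description of letters only. Cpt1a had a GC box and an AGGTCA, while Slc25a20, Acadl, Hadhb and Eci1 had only GC boxes among these. Hadha and Hadhb start head to head on opposite strands, 273 bases apart, and their windows share 228 bases. The 1 GC box of the Hadha window is therefore a box of the Hadhb window read from the other strand.

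The shuttle genes were higher on the high-fat diet in both strains. Scaled signals of Cpt1a were 1726 and 3039 in A/J and 966 and 1764 in C57BL/6J. The lowest array was C57BL/6J low-fat and the highest A/J high-fat, with the remaining pair at nearly the same level. The diet ratio was 1.76-fold in A/J and 1.83-fold in C57BL/6J.

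Slc25a20, the carnitine-acylcarnitine carrier, stood at 1149, 2468, 1224 and 1956. Both high-fat arrays were above both low-fat arrays. The ratios were 2.15-fold in A/J and 1.60-fold in C57BL/6J. Cpt2, at 2779, 4165, 2509 and 3535, followed the same order of diets. Its ratios of 1.498 and 1.41 lay just under the 1.5-fold used for counting.

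**Figure D1:**
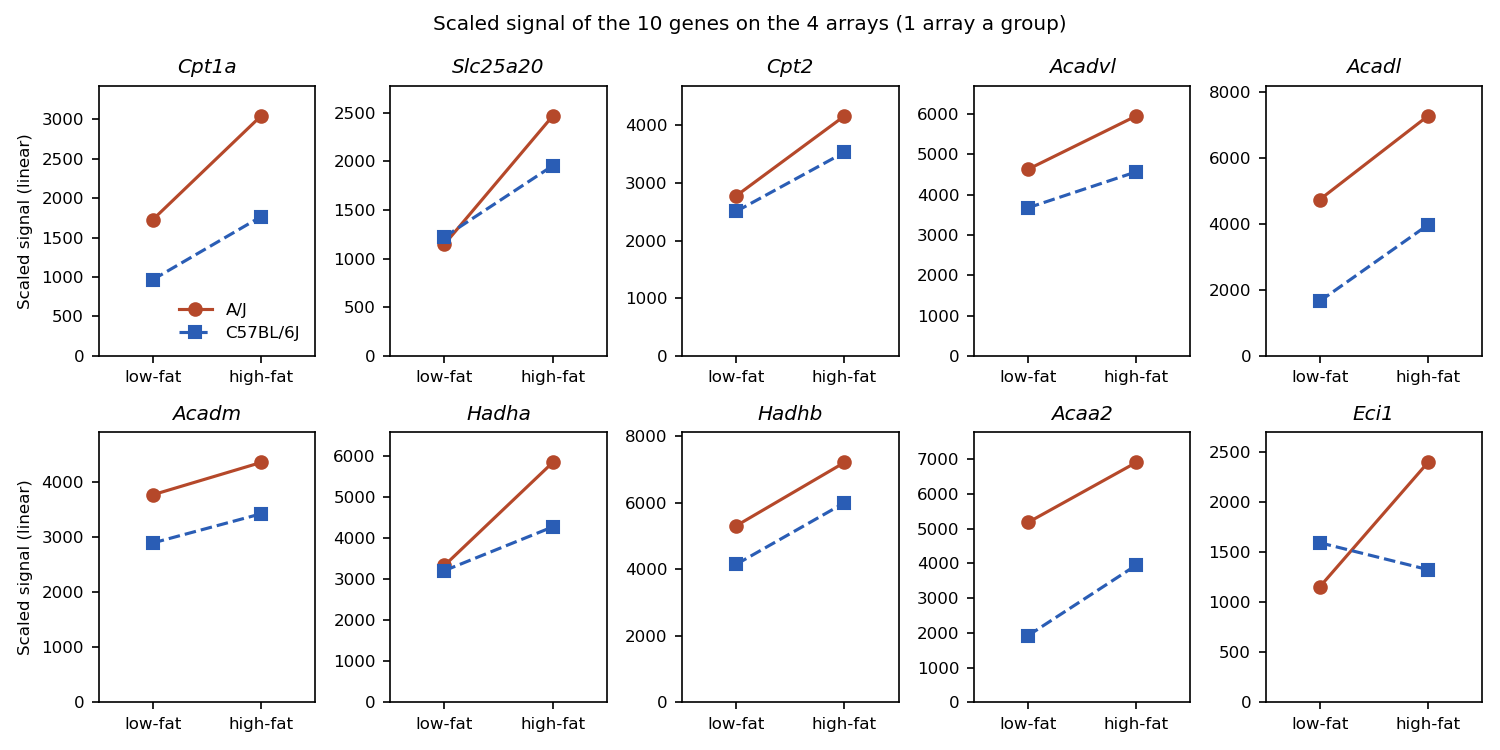
Scaled signal (linear, vertical axes from 0) of each of the 10 genes on the 4 arrays, with A/J as circles joined by solid lines and C57BL/6J as squares joined by dashed lines. Each point is 1 array with no error bar. The A/J high-fat array is the highest point for every gene, and the C57BL/6J line slopes down only for Eci1.

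Among the acyl-CoA dehydrogenases, the genes for the very long-chain and the medium-chain enzyme had the smallest diet ratios of the group apart from Eci1 in C57BL/6J, and the gene for the long-chain enzyme the largest in C57BL/6J. Acadvl stood at 4627, 5949, 3672 and 4564. Its diet ratios were 1.29-fold in A/J and 1.24-fold in C57BL/6J. Acadm, at 3766, 4352, 2893 and 3421, had ratios of 1.16-fold and 1.18-fold. For both genes the 2 arrays of a strain lay closer together than the fold used for counting, with A/J above C57BL/6J on each diet.

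Acadl signals were 4742, 7280, 1661 and 3973. The C57BL/6J low-fat array was the lowest by a wide margin, so that the diet ratio was 2.39-fold in C57BL/6J and 1.54-fold in A/J.

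Of the trifunctional protein, the alpha subunit gene Hadha stood at 3335, 5841, 3209 and 4273 and the beta subunit gene Hadhb at 5309, 7211, 4151 and 5998. The 2 low-fat arrays were nearly level for Hadha, whereas Hadhb was higher in A/J on either diet. Although these genes share their promoter region (above), their ratios were not equal. Hadha was 1.75-fold higher on high-fat in A/J and 1.33-fold in C57BL/6J, and Hadhb was 1.36-fold and 1.44-fold higher. Whether the subunits differ could not be tested with 1 array a group.

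Acaa2, the thiolase gene, had signals of 5179, 6905, 1922 and 3948. Like Acadl, it was lowest by a wide margin on C57BL/6J low-fat, and its diet ratios were 1.33-fold in A/J and 2.05-fold in C57BL/6J. Eci1, the isomerase gene, was like Slc25a20 lowest on A/J low-fat, and it was the only 1 of the 10 with less signal on high-fat in C57BL/6J. Its A/J signals were 1151 on low-fat and 2391 on high-fat, and its C57BL/6J signals 1592 and 1324. It was 2.08-fold higher on high-fat in A/J and 1.20-fold lower in C57BL/6J.

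Across the 10 genes, 5 reached a 1.5-fold higher signal with high-fat feeding in A/J (Slc25a20, Eci1, Cpt1a, Hadha and Acadl), where 4.99% of all measured genes did. In C57BL/6J 4 did (Acadl, Acaa2, Cpt1a and Slc25a20), against 5.13% of measured genes. None was 1.5-fold lower in either strain, against 4.7% and 4.63%. Cpt1a, Slc25a20 and Acadl passed this fold in both strains, as did 1.16% of measured genes. At any size, all 10 were higher in A/J and 9 in C57BL/6J, where the shares of measured genes were 50.9% and 48.1%, and 9 were higher in both strains, as were 26.8%. All 8 T cell markers were lower with high-fat feeding in C57BL/6J, 7 of them by 1.5-fold or more, and 6 of 8 were higher in A/J. The median log2 diet ratio of the 10 was 0.60 for A/J and 0.51 for C57BL/6J, beside 0.01 and -0.01 over all measured genes. Pancreas marker signal was lower on high-fat in A/J and higher on high-fat in C57BL/6J. The part of T cell and pancreas RNA in the diet ratios was not tested. Averaging all probe sets of a gene lowered the counts to 3 in A/J and 2 in C57BL/6J. Lost were Cpt1a and Acadl in A/J, and Cpt1a and Slc25a20 in C57BL/6J. The averages of Cpt1a and Acadl include probe sets near or under the floor, whereas both Slc25a20 probe sets were above it.

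**Figure D2:**
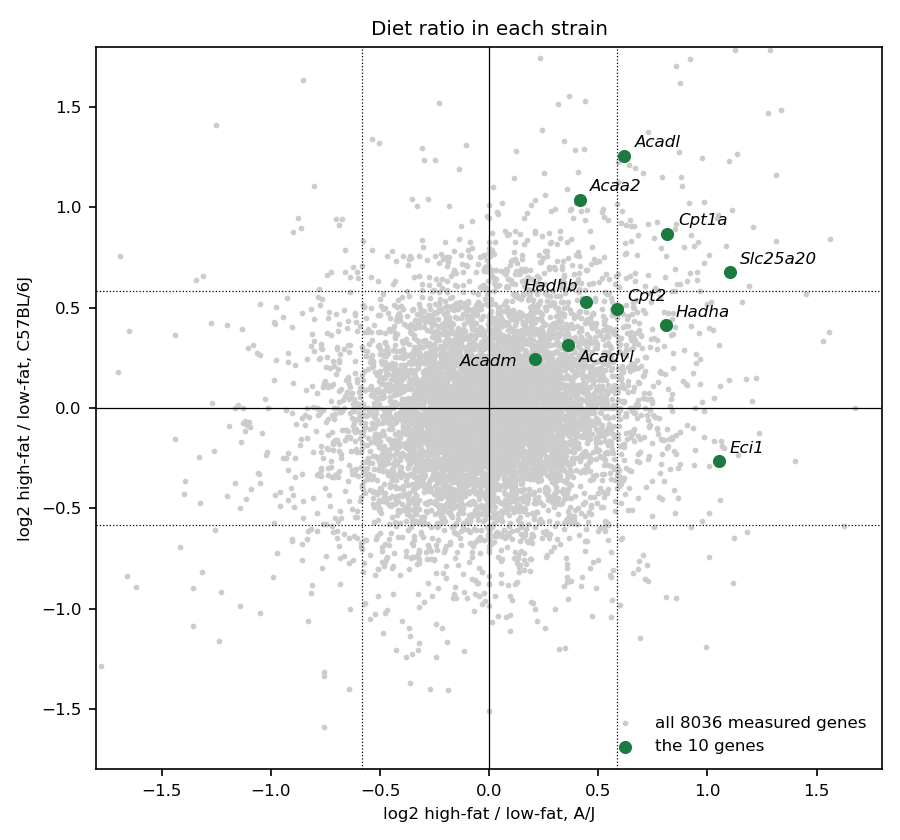
Log2 ratio of high-fat over low-fat signal in A/J (horizontal) and C57BL/6J (vertical) for all measured genes (grey) and the 10 genes (green), with dotted lines at 1.5-fold. The axes end at 1.8, which leaves 46 genes off the plot, and 9 of the 10 genes lie above 0 on both axes, with Eci1 below the horizontal axis.

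In the additive limma fit, with Benjamini-Hochberg adjustment over all measured genes, 0 of the 10 passed an adjusted p of 0.05 for diet. That fit called 0.423% of measured genes higher and 0.187% lower on high-fat. At an unadjusted p under 0.05, 7 of the 10 were higher, as were 4.87% of measured genes. The 3 nearest to the threshold were Acadl, with a log2 change of 0.94 (SE 0.215), Slc25a20, with 0.89 (SE 0.204), and Cpt1a, with 0.84 (SE 0.195), each at an adjusted p of 0.0994. Acaa2 followed with 0.73 (SE 0.214, adjusted p 0.228) and Hadha with 0.61 (SE 0.203, adjusted p 0.305). Of the rest, Cpt2 had an adjusted p of 0.383, and Eci1, with 0.39 (SE 0.272), one of 0.760. The fit has 1 residual degree of freedom, which is the difference of diet response between strains itself, and the rest of the error term comes from moderation of the variance across genes. With an intensity trend in that moderation 4 of the 10 passed (Acadl, Slc25a20, Cpt1a and Acaa2), and with a pseudocount in place of the floor 3 did. When 1 array was left out, in a fit with diet alone in which the strains are no longer balanced, the diet changes shifted widely. Without the C57BL/6J low-fat array the log2 change was 0.18 for Acadl, 0.01 for Acaa2 and 0.42 for Cpt1a. Without A/J high-fat these were 0.50, 0.32 and 0.45, with Hadha at 0.39 and Eci1 at -0.03. Without A/J low-fat they were 1.70, 1.44 and 1.26, with Eci1 at 0.16, and without C57BL/6J high-fat 1.38, 1.13 and 1.24, with Eci1 at 0.82. Without C57BL/6J low-fat Eci1 was at 0.63. Slc25a20 stayed between 0.72 and 1.06.

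How far the diet response differed between the strains could not be tested, since that difference is the residual of the fit. As a description, the log2 diet ratio in A/J minus that in C57BL/6J was -0.64 for Acadl and -0.62 for Acaa2, and 0.43 for Slc25a20, 0.40 for Hadha and 1.32 for Eci1. For the other 5 genes it lay between -0.09 and 0.09. For Acadl and Acaa2 the diet ratio in C57BL/6J and the strain ratio on low-fat share the C57BL/6J low-fat array, on which both genes had their lowest signal.

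The strain comparison showed higher signal in A/J for most of the pathway, with the widest gaps at Acadl, Acaa2 and Cpt1a. On the low-fat diet, Acadl was 2.86-fold, Acaa2 2.69-fold and Cpt1a 1.79-fold higher in A/J, and these 3 were the ones past 1.5-fold, against 10.9% of measured genes. On the high-fat diet the ratios were 1.83-fold for Acadl, 1.75-fold for Acaa2 and 1.72-fold for Cpt1a, and Eci1 joined them at 1.81-fold. These 4 compare with 8.37% of measured genes. Acadl, Acaa2 and Cpt1a passed on both diets, as did 3.8% of measured genes. At any size, 8 of the 10 were higher in A/J on low-fat and all 10 on high-fat, beside 52.0% and 54.4% of measured genes, and 8 were higher on both diets, as were 35.7%. None was 1.5-fold lower in A/J on either diet, against 9.23% on low-fat and 6.88% on high-fat.

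The exceptions were on the low-fat diet. Eci1 was 1.38-fold lower in A/J there, and Slc25a20 1.07-fold lower, a difference that changed sign without scaling between arrays and when all its probe sets were averaged. The remaining genes had smaller ratios that favoured A/J. On low-fat and high-fat, these were 1.26-fold and 1.30-fold for Acadvl, 1.30-fold and 1.27-fold for Acadm, and 1.28-fold and 1.20-fold for Hadhb. Cpt2 was 1.11-fold and 1.18-fold higher in A/J, and Hadha 1.04-fold and 1.37-fold. The median log2 strain ratio of the 10 was 0.34 on low-fat and 0.42 on high-fat, beside 0.02 and 0.04 over all measured genes.

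**Figure D3:**
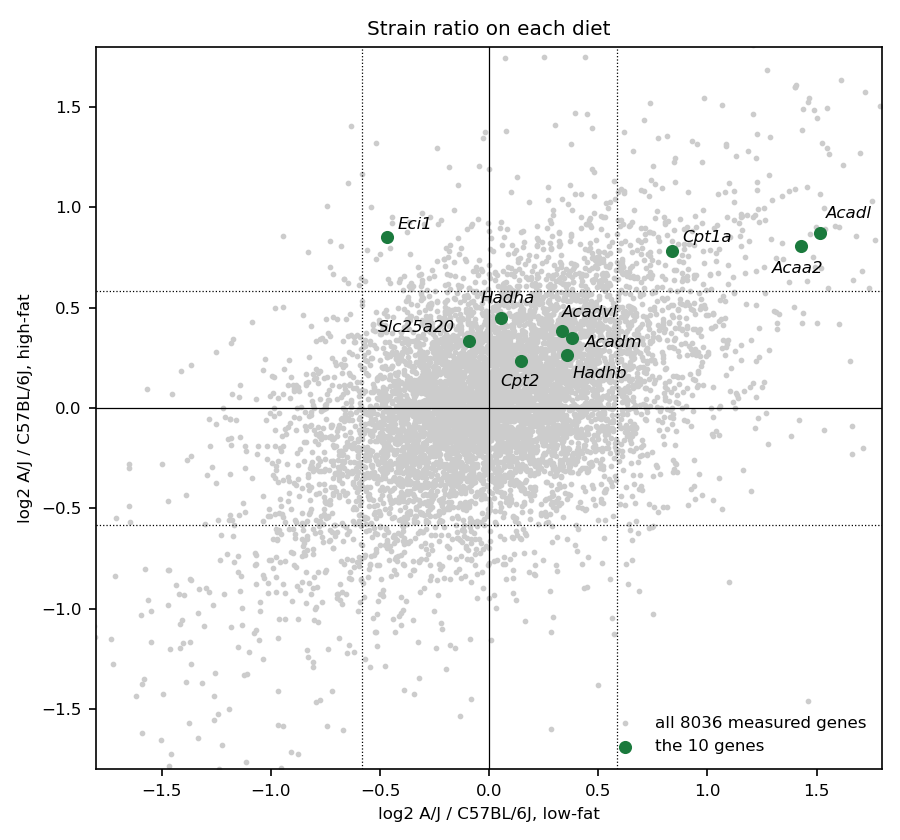
Log2 ratio of A/J over C57BL/6J signal on the low-fat (horizontal) and the high-fat diet (vertical) for all measured genes (grey) and the 10 genes (green), with dotted lines at 1.5-fold. The axes end at 1.8, which leaves 143 genes off the plot. Acadl, Acaa2 and Cpt1a lie past both lines, and Eci1 lies to the left of the vertical axis and above the upper line.

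In the limma fit 3 of the 10 were called higher in A/J, and none lower, with 3.83% of measured genes called higher and 3.68% lower. Acadl was higher by 1.19 in A/J on the log2 scale (SE 0.215, adjusted p 0.00467), higher on 2 of 2 diets. Acaa2 was higher by 1.12 (SE 0.214, adjusted p 0.00695) and Cpt1a by 0.81 (SE 0.195, adjusted p 0.0257), also on 2 of 2 diets. The adjusted p of the other 7 ran from 0.309 for Acadm to 0.791 for Slc25a20. None of the 3 calls held with a floor of 200, without the filter on mean signal, with strain as the only factor, or when any 1 array was left out, although A/J stayed the higher strain in each. When 1 array was left out, strain was fitted alone and the diets were no longer balanced. Diet differences therefore enter the strain values that follow. Without the C57BL/6J low-fat array the log2 strain change was 0.56 for Acadl, 0.60 for Acaa2 and 0.38 for Cpt1a. Without C57BL/6J high-fat it was 1.82 for Acadl and 1.25 for Cpt1a, and for Cpt1a it was 0.40 without A/J high-fat and 1.22 without A/J low-fat. The Acaa2 call was also lost without probe sets shared between transcripts, and the Acadl call when its second probe set, under the floor on all arrays, was averaged in. The Cpt1a call was also lost under quantile normalization, with a floor of 50, without shared probe sets, and with averaged probe sets. Averaged with probe sets near or under the floor, its log2 change was 0.29. With a floor of 200 and without the filter, the log2 changes stayed at 1.19 for Acadl, 1.12 for Acaa2 and 0.81 for Cpt1a. They also stayed so with strain as the only factor on all 4 arrays. For Cpt1a the value was the same with a floor of 50 and without shared probe sets. In these settings only the error term and the adjustment over genes differed. Over all 15 alternatives Acadl was called under 7, Acaa2 under 7 and Cpt1a under 4. All 8 T cell markers were lower in A/J on low-fat, 6 of them by 1.5-fold or more, while on high-fat 5 were higher and 3 lower, with Gzma, named after its value was seen, past 1.5-fold lower. Their median log2 strain ratio was -1.18 on low-fat and 0.09 on high-fat. Enterocyte markers had a median log2 strain ratio of -0.06 and -0.10 on the 2 diets. Their part in the strain ratios was not tested.

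Set beside A/J on low-fat, the C57BL/6J high-fat array was level or higher for some of these genes and lower for others. For Cpt1a it stood at 102% of the A/J low-fat signal, for Hadhb at 113%, for Cpt2 at 127%, for Hadha at 128%, and for Slc25a20 at 170%. Eci1 was at 115%. Acaa2 reached 76.2%, Acadl 83.8%, Acadm 90.8% and Acadvl 98.6%. This pair of arrays differs in strain and in diet, was compared after the values were seen, and has no test.

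Of the 6 genes with several probe sets, Cpt2 and Acaa2 had the same sign from each in all comparisons. Of the 18 probe sets, 16 passed the mean signal of 100, 15 were above the floor on every array, and none was shared with another gene in the annotation. Among those 15, 14 were higher on high-fat in A/J and 14 in C57BL/6J, and 13 and 14 were higher in A/J on low-fat and high-fat. Of the 15, 10 had already been counted above as genes, and only 5 were further probe sets. No share over all probe sets above the floor was set beside these counts. The brightest probe set of each gene was the one used above.

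For Acaa2 all 3 probe sets gave more signal with high-fat feeding in either strain and in A/J on either diet, but the size of the strain ratio differed between them. The probe set 1428145_at, at 1882, 2951, 1268 and 2794, gave a diet log2 ratio of 0.65 in A/J and 1.14 in C57BL/6J. Its strain log2 ratio was 0.57 on low-fat and 0.08 on high-fat. The probe set 1455061_a_at, at 2422, 3682, 640 and 1691, gave strain log2 ratios of 1.92 and 1.12. The 2 probe sets with the wider strain gaps are those whose suffix marks matches to several transcripts, and without such probe sets the strain call for Acaa2 was lost.

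Slc25a20 had a second probe set, 1423109_s_at, at 662, 1496, 490 and 662, which put A/J above C57BL/6J on both diets, with log2 ratios of 0.43 and 1.18. The second Hadhb probe set, 1437172_x_at, at 1583, 1325, 1034 and 1340, was lower on high-fat in A/J (log2 ratio -0.26) and higher in C57BL/6J (0.37). Both of these second probe sets carry a suffix that the setting without shared probe sets leaves out. The second Cpt2 probe set was dim, at 140, 157, 105 and 142. Of the other Cpt1a probe sets 1434866_x_at lay between 93.2 and 115, and 1438156_x_at was under the floor on all arrays, as was Acadl 1448988_at, so these give no ratio of use.

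**Figure D4:**
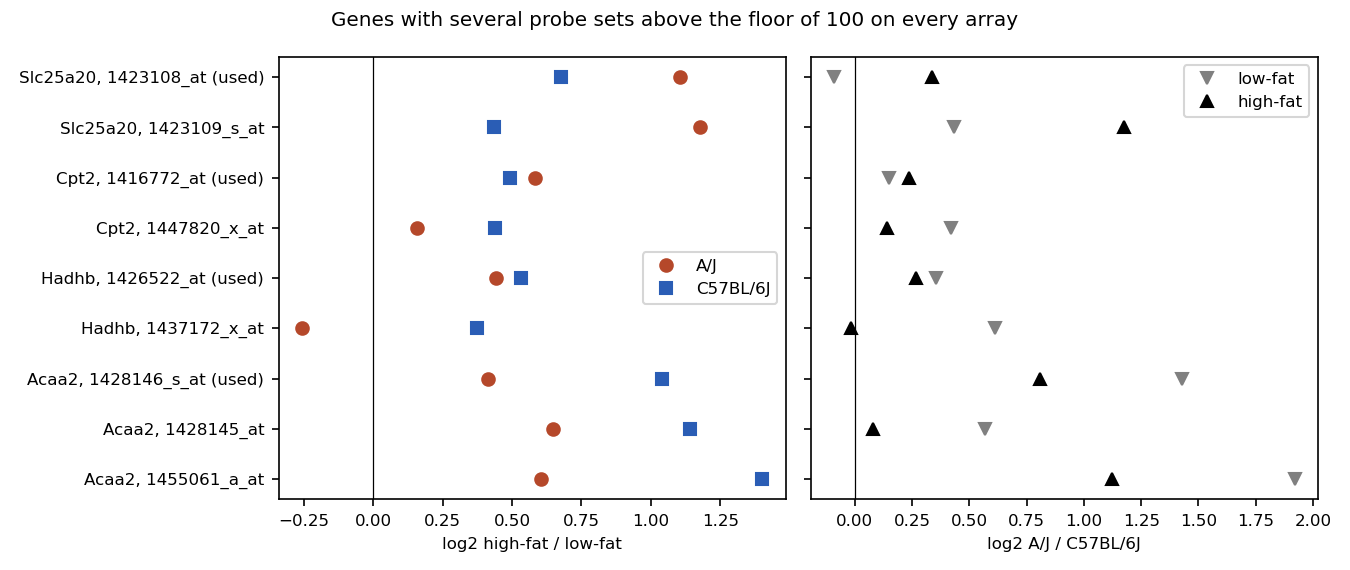
Log2 ratios for the genes with several probe sets above the floor on every array, 1 row a probe set. High-fat over low-fat is on the left, with A/J as circles and C57BL/6J as squares. A/J over C57BL/6J is on the right, with low-fat as downward and high-fat as upward triangles. The second Hadhb probe set is the only one to the left of 0 for diet, and the 3 Acaa2 probe sets spread widely for strain.

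The rest of mitochondrial oxidation had smaller median diet ratios. Of 19 further genes (other dehydrogenases, the electron transfer flavoproteins, hydratases, auxiliary enzymes and the carnitine importer), 17 had a probe set of their own, and all 17 were measured. Their median log2 diet ratio was 0.30 for A/J and 0.32 for C57BL/6J. With diet, 2 were at least 1.5-fold higher in each strain, against 4.99% of measured genes in A/J and 5.13% in C57BL/6J. None was 1.5-fold lower, against 4.7% and 4.63%, and 0 of 17 were called by limma. Slc22a5, the plasma membrane carnitine importer, had signals of 2401, 4019, 2301 and 3320 and was 1.67-fold and 1.44-fold higher on high-fat. Crat, which makes short-chain carnitine esters, stood at 1076, 1138, 507 and 921, with the C57BL/6J low-fat array the lowest, and was 1.06-fold and 1.82-fold higher.

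Acot2, a mitochondrial thioesterase that releases fatty acids from coenzyme A, was 1.75-fold higher on high-fat in A/J. In C57BL/6J it was at least 1.57-fold higher, because the C57BL/6J low-fat signal was under the floor. Hadh, the short-chain dehydrogenase of the second oxidation step, was 1.08-fold and 1.10-fold lower on high-fat, at 22620, 21021, 22681 and 20601. The electron transfer flavoprotein genes Etfa, Etfb and Etfdh were between 1.09-fold and 1.37-fold higher on high-fat. For strain, limma called Eci2, the second isomerase gene (log2 change 0.80, adjusted p 0.0271), and Acot2 (0.79, adjusted p 0.0292, with 1 array at the floor) higher in A/J, and none of the 17 lower. Among measured genes 3.83% were called higher in A/J and 3.68% lower.

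Of 8 genes for acyl-CoA synthetases, acetyl-CoA carboxylases and the control of malonyl-CoA, 6 had a probe set of their own and 2 were measured. Acsl5, a synthetase that feeds fatty acids into the acyl-CoA pool, was 1.25-fold and 1.39-fold higher on high-fat. Mlycd, which breaks down the malonyl-CoA that inhibits Cpt1a, stood at 472, 815, 444 and 501, higher on high-fat by 1.73-fold in A/J and by 1.13-fold in C57BL/6J. Of 4 ketone body genes, only 2 had a probe set of their own, Bdh1 and Slc16a1. Both were measured and were lower on high-fat in each strain, by between 1.13-fold and 1.42-fold, with no call.

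Among 13 regulators, 12 had a probe set of their own, 11 were measured and 0 were called for diet. Ppara, the receptor that drives fatty acid oxidation genes, stood at 387, 541, 203 and 293. Its order of arrays was that of Acadvl. It was 1.40-fold and 1.45-fold higher on high-fat, and 1.91-fold and 1.85-fold higher in A/J on low-fat and high-fat. Limma called it higher in A/J (log2 change 0.91, adjusted p 0.0136). Sirt3, a mitochondrial deacetylase, was also called higher in A/J (0.86, adjusted p 0.0182). These 2 calls among 11 regulators compare with 3.83% of measured genes. Ppargc1a, a coactivator of mitochondrial gene expression, went the other way with diet, at 2338, 1664, 1551 and 1125. It was 1.41-fold and 1.38-fold lower on high-fat and was not called (adjusted p 0.459). Pparg was the only regulator past 1.5-fold with diet in both strains, as were 1.16% of measured genes. It stood at 119, 190, 49.8 and 182, dim and under the floor on C57BL/6J low-fat. Its diet ratio was 1.60-fold in A/J and at least 1.82-fold in C57BL/6J, and limma did not call it (adjusted p 0.150).

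Of 18 listed Ppara targets outside the 10 genes, 15 had a probe set of their own and 13 were measured. Limma called none lower on high-fat, against 0.187% of measured genes, and 4 higher, against 0.423%. These were Me1, malic enzyme, with a log2 change of 2.71 (SE 0.197, adjusted p 7.82e-05), Pdk4, which shuts off pyruvate dehydrogenase, Aqp3, a glycerol channel, and Cd36, a fatty acid uptake protein. Me1 had signals of 381, 2712, 180 and 1087, and Cd36 1193, 2891, 131 and 364. The diet ratio of Cd36 was 2.42-fold in A/J and 2.77-fold in C57BL/6J. Pdk4 and Aqp3 were under the floor on C57BL/6J low-fat, which makes their ratios there lower bounds, at least 4.83-fold and 2.80-fold. The median log2 diet ratio of the 13 was 0.84 for A/J and 0.64 for C57BL/6J.

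Peroxisomal oxidation, which shortens very long and branched chains, had a median log2 diet ratio of 0.41 in A/J and 0.32 in C57BL/6J over 18 measured genes of 21. Of the 21, 19 had a probe set of their own. Limma called 1 of the 18 higher on high-fat, against 0.423% of measured genes. This was the thiolase gene Acaa1b, which was 2.14-fold and 2.35-fold higher (adjusted p 0.0197). Hsd17b4, the peroxisomal bifunctional enzyme, was 1.88-fold and 2.03-fold higher at an adjusted p of 0.0518. For strain, 6 of the 18 were called higher in A/J, among them Acaa1b, Acox2 and Slc27a2, against 3.83% of measured genes. None was called lower, against 3.68%. Slc27a2, which activates very long chains, is also on the list of Ppara targets, as is Ehhadh.

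The tricarboxylic acid cycle and the respiratory chain, which lie downstream of beta-oxidation, had median diet ratios near 0. Over 18 measured cycle genes the median log2 diet ratio was -0.00 for A/J and 0.02 for C57BL/6J, with no gene at 1.5-fold in either strain and none called. Sdhd, a subunit of succinate dehydrogenase, had the largest ratio shared by both strains, with a log2 ratio of -0.33 in A/J and -0.35 in C57BL/6J. Over 42 measured genes of oxidative phosphorylation the medians were 0.07 and -0.16, and none was called. On high-fat 4 were at least 1.5-fold lower in C57BL/6J, against 4.63% of measured genes, and none in A/J, against 4.7%. The complex I subunit gene Ndufb3 was lower in both, with log2 ratios of -0.42 and -0.27.

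**Figure D5:**
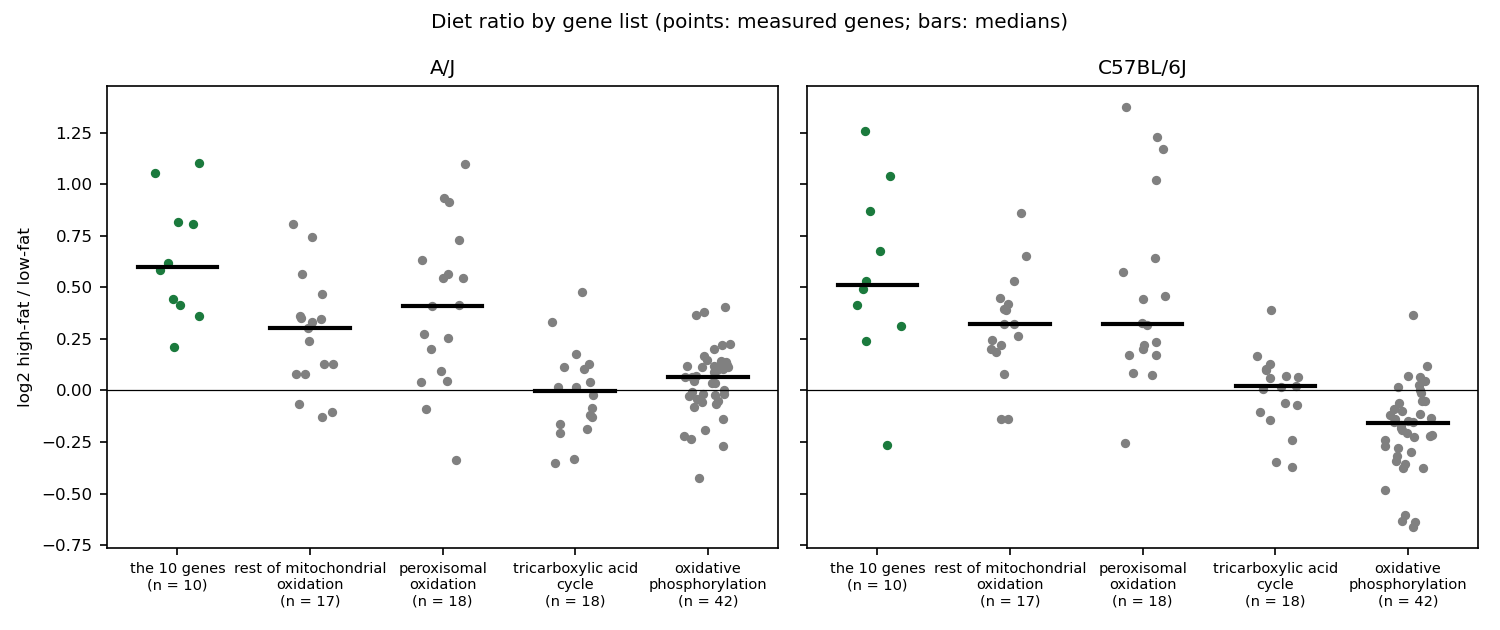
Log2 high-fat over low-fat ratio in A/J (left) and C57BL/6J (right) for the 10 genes (green) and for the measured genes of 4 related lists (grey), 1 point a gene, with the median of each list as a bar. The medians of the 10 genes are 0.60 and 0.51 and those of the tricarboxylic acid cycle -0.00 and 0.02.

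The 10 genes differed among themselves in how closely they followed the mean of their patterns. The mean pattern, in log2 units about each gene's own mean, was -0.07 on low-fat and 0.57 on high-fat for A/J, and -0.52 and 0.03 for C57BL/6J. Hadhb lay nearest to it, at a Euclidean distance of 0.230 over the 4 arrays, and Acadl (0.860), Acaa2 (0.731) and Eci1 (0.717) lay farthest. Of 3720 genes outside all lists whose scaled signal averaged 500 or more, the 6 nearest to the pattern were Cdc73 (0.0707), Hsd17b11 (0.0900), Slc25a13 (0.107), Slc25a11 (0.154), Scarb2 (0.160) and Nudt4 (0.165). Cdc73 belongs to the Paf1 transcription complex, Hsd17b11 is an enzyme of lipid droplets, and Slc25a13 and Slc25a11 are mitochondrial carriers of aspartate and glutamate and of oxoglutarate. Hsd17b11 stood at 11504, 17196, 8171 and 12877. Of the 3720 genes, 21 lay nearer to the mean pattern than Hadhb did. For Eci1 that number was 1177, for Acaa2 1245 and for Acadl 2028. Over 4 arrays such nearness is a description only.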

How the data were processed

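Expression was measured on 4 Affymetrix Mouse Expression Array 430A arrays, 1 per group, in pooled RNA of intestinal mucosa. The deposited intensity is the linear signal that Microarray Suite 5.0 computed from perfect match and mismatch probes at default parameters, per the labels' protocols. No scaling target is stated in the labels. Of 22690 probe sets, 64 controls were left out, and 20380 with 1 annotated gene were used for genes. Each array was scaled so that its mean, trimmed by 2% at each end, was 500. Signals under 100 were set to 100 and log2 was taken. A gene was represented by its brightest probe set on average.

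Strain and diet were fitted as additive terms with limma 3.58.1 in R 4.3.3 over 8036 measured genes with Benjamini-Hochberg adjustment, after a test on simulated data. With 1 array a group, ratios between arrays have no test and were counted at 1.5-fold. The p-values rest on the 1 residual degree of freedom, the strain-by-diet difference, and on variance moderated across genes. They do not measure the spread between mice. Alternatives were quantile normalization, no scaling, floors of 50 and 200, a pseudocount of 50, other choices of probe sets, no filter, an intensity trend, 1 factor and each array left out.

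The genes, lists and comparisons were chosen with earlier results of these data known. Named were all 10 genes, any gene of the lists of other oxidation, activation, ketone bodies and regulators, and of the 4 larger lists the 4 genes with the largest smaller diet ratio in both strains and the 2 with the largest strain ratio each way. The 6 genes most like the 10 were also named. Promoter sequences are RefSeq's on GRCm38.p6. Tables were handled in Python 3.11.15 (pandas 2.3.3), trimmed means computed with scipy 1.17.1 and plots drawn with matplotlib 3.10.9.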

Additional observations from a re-analysis of the deposited data

Results flagged for a closer look

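The diet ratios of Eci1 had opposite signs in the strains, with a log2 high-fat over low-fat ratio of 1.05 in A/J and -0.27 in C57BL/6J for its probe set 1418321_at, the only one of the gene. The second Hadhb probe set, 1437172_x_at, went the opposite way round, with -0.26 in A/J and 0.37 in C57BL/6J, while the brighter Hadhb probe set was higher on high-fat in both. Each sign rests on 1 array a group, and neither difference was tested.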

How the results depend on the processing

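Of the 10 genes, 0 were called for diet by limma, and the count was 3 with a pseudocount of 50 replacing the floor and 4 with an intensity trend. The 3 strain calls became 2 under quantile normalization and with a floor of 50, 0 with a floor of 200, without the filter on mean signal and with 1 factor only, 1 when a gene's probe sets were averaged and 1 without shared probe sets. When any single array was left out, leaving a fit of 1 factor, the strain calls were 0 in every case. The 5 genes past 1.5-fold with diet in A/J became 3 with averaged probe sets and 2 at a threshold of 2-fold. The 4 in C57BL/6J became 2 and 2. The averages of Cpt1a and Acadl include probe sets near or under the floor. The 4 genes higher in A/J on high-fat became 8 without scaling between arrays, a setting that moved the median of all measured genes to 0.32 on the log2 scale, and 0 at 2-fold. For single genes, 27 of 300 limma values lost a call and 7 gained one. The 7 limma values that changed sign did so when an array was left out, and none was called. Of 360 ratios 2 changed sign, both of Slc25a20 between strains on low-fat.

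No paired analysis was possible because each group has 1 array and the labels give no replicate numbers. The 4 arrays limit the precision of every value, and signals under the floor of 100 give only bounds.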
